A study of Mus musculus with 18 samples.

Results

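The HoxC cluster is one of the 4 Hox gene clusters of the mouse and lies on chromosome 15. Every CpG row in a window of 126 kb, which runs from upstream of Hoxc13 to beyond Hoxc4, was taken if both pools of a tissue had at least 10 reads, without regard to its methylation level. The first and the last such site bound the stretch chr15:102920649-103041177 (GRCm38). This gave 843 CpG sites of 1876099 tested in gonadal adipose tissue, 731 of 1569349 in hypothalamus and 755 of 1628817 in liver. In all, 847 sites were measured in at least 1 tissue and 702 in all 3. The annotation places 15 genes in this window, of which 9 encode the Hoxc proteins and 6 are noncoding.

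The series asks how bisphenol A (BPA), a plasticizer with weak oestrogen-like activity, given before birth relates to DNA methylation in the offspring. The exposed group comprised male C57BL/6 offspring whose dams were gavaged daily, from day 1 to day 20 after conception, with BPA (5 mg per kg per day) dissolved in corn oil. The control group comprised male C57BL/6 offspring whose dams received corn oil alone on the same days. The 3 tissues, gonadal adipose, hypothalamus and liver, were collected at the age of 3 weeks from 4 BPA litters and 3 control litters. There were 3 samples for each treatment and tissue and 18 in all, and their litters are not given in the sources read here. The method was reduced representation bisulfite sequencing, starting from 100 ng of DNA per sample. In this assay the enzyme MspI cuts DNA at CCGG and bisulfite converts unmethylated cytosines, so the share of methylated reads is obtained at single CpG sites near the cuts.

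The values of the 3 samples of a group are joined in the deposited tables into 1 pool per treatment and tissue, so each level below is the authors' pooled level, with no error between animals. Pools carry the numbers 0 and 1. The reading of number 0 as control and number 1 as BPA rests only on a label that names the control group before the BPA group, since the numbering is not explained. Were it the reverse, every direction between BPA and control would turn, while directions between tissues would stay. All 95% intervals cover counting error only and treat reads as independent. Several reads can be PCR copies of 1 molecule and no molecular identifiers are named in the protocol, so the intervals can be too narrow. The tissues are mixtures of cells, so a different level within cells and a different mixture of cells cannot be told apart.

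Hox genes encode homeodomain transcription factors that give cells their position along the body axis. They are arranged in clusters in the order in which they are expressed along that axis, with the posterior genes, such as Hoxc13, at one end and the anterior ones, such as Hoxc4, at the other. Their CpG islands are mostly free of DNA methylation, and silent Hox genes are held down largely by Polycomb group proteins. Fat depots of the trunk keep a positional Hox expression pattern in the adult, whereas most forebrain cells do not express these genes.

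Sequences show where the measured CpG sites lie. Promoter windows from RefSeq (build GRCm38.p6, 250 bases before to 50 after a start) matched 4 of the 15 genes. In 3 of them CpG sites were measured, and they are printed here 5′ to 3′ on the strand of the gene because the levels below refer to them. Capitals mark the CG pairs measured in at least 1 tissue, and the motif CCGG occurs once in each.
Hoxc4, chr15:103034145-103034444, plus strand: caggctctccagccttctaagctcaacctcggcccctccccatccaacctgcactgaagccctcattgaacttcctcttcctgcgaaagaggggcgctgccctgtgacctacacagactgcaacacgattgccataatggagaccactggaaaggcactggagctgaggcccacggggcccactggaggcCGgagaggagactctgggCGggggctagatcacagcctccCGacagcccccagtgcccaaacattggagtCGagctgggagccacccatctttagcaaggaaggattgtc
Gm29905, chr15:102998118-102998417, minus strand: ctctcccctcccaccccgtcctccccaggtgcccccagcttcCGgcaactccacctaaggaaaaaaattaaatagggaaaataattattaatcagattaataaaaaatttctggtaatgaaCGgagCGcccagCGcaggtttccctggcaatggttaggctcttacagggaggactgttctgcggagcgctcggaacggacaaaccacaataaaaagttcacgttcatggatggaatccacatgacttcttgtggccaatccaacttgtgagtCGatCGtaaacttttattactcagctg
Gm36878, chr15:102981014-102981313, minus strand: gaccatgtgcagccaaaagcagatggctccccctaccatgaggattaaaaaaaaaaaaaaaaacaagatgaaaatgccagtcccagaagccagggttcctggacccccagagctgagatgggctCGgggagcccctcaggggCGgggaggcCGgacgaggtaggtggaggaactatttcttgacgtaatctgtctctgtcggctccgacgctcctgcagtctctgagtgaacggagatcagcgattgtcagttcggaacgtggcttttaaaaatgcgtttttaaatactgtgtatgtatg

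The Hoxc4 window had 4 of its 9 CG pairs measured, the Gm29905 window 6 of 12 and the Gm36878 window 3 of 13. The motif CCGG, which reads the same on both strands, is present in 52.8% of the 32851 promoter windows of the table. Mean levels over the 4 measured sites of the Hoxc4 window were 7.88% in BPA and 5.54% in control adipose, 4.01% in BPA and 2.60% in control hypothalamus, and 4.47% in BPA and 9.91% in control liver. The Gm36878 window lies inside the Hoxc9 body, and its mean stayed between 0.791% (BPA, hypothalamus) and 5.14% (control, adipose). The Gm29905 window overlaps the annotated start of Hoxc6, and its mean ranged from 3.00% (BPA, adipose) to 6.62% (BPA, hypothalamus).

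The cluster also holds 2 microRNA genes, whose mature products pair with target RNAs through the seed, bases 2 to 8, given in capitals from RefSeq. All 4 seeds differ. They are shown because miR-196a is encoded between Hoxc10 and Hoxc9, next to the sites with higher methylation in adipose described below, and in the mouse represses Hox messages such as that of Hoxc8.
miR-196a-5p: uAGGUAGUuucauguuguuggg
miR-196a-2-3p: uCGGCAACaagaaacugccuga
miR-615-5p: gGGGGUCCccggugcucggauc
miR-615-3p: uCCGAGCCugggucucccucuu

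Methylation of the cluster was low in every pool. The mean level over its sites was 8.82% in BPA and 9.68% in control adipose, 4.33% in BPA and 3.86% in control hypothalamus, and 4.91% in BPA and 5.17% in control liver. Over all tested sites of the same pools the mean lay between 50.1% (BPA, adipose) and 50.6% (BPA, hypothalamus). Sites under 10% made up 70.9% of the cluster in BPA and 70.5% in control adipose, 89.5% in BPA and 90.0% in control hypothalamus, and 87.7% in BPA and 86.2% in control liver. Levels above 50% were found at 6 sites in BPA adipose, 18 in control adipose, 1 in each hypothalamus pool, 0 in BPA liver and 1 in control liver. Median coverage per site was 173 reads in BPA and 152 in control adipose, 101 in BPA and 102 in control hypothalamus, and 125 in BPA and 130 in control liver.

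**Figure D1:**
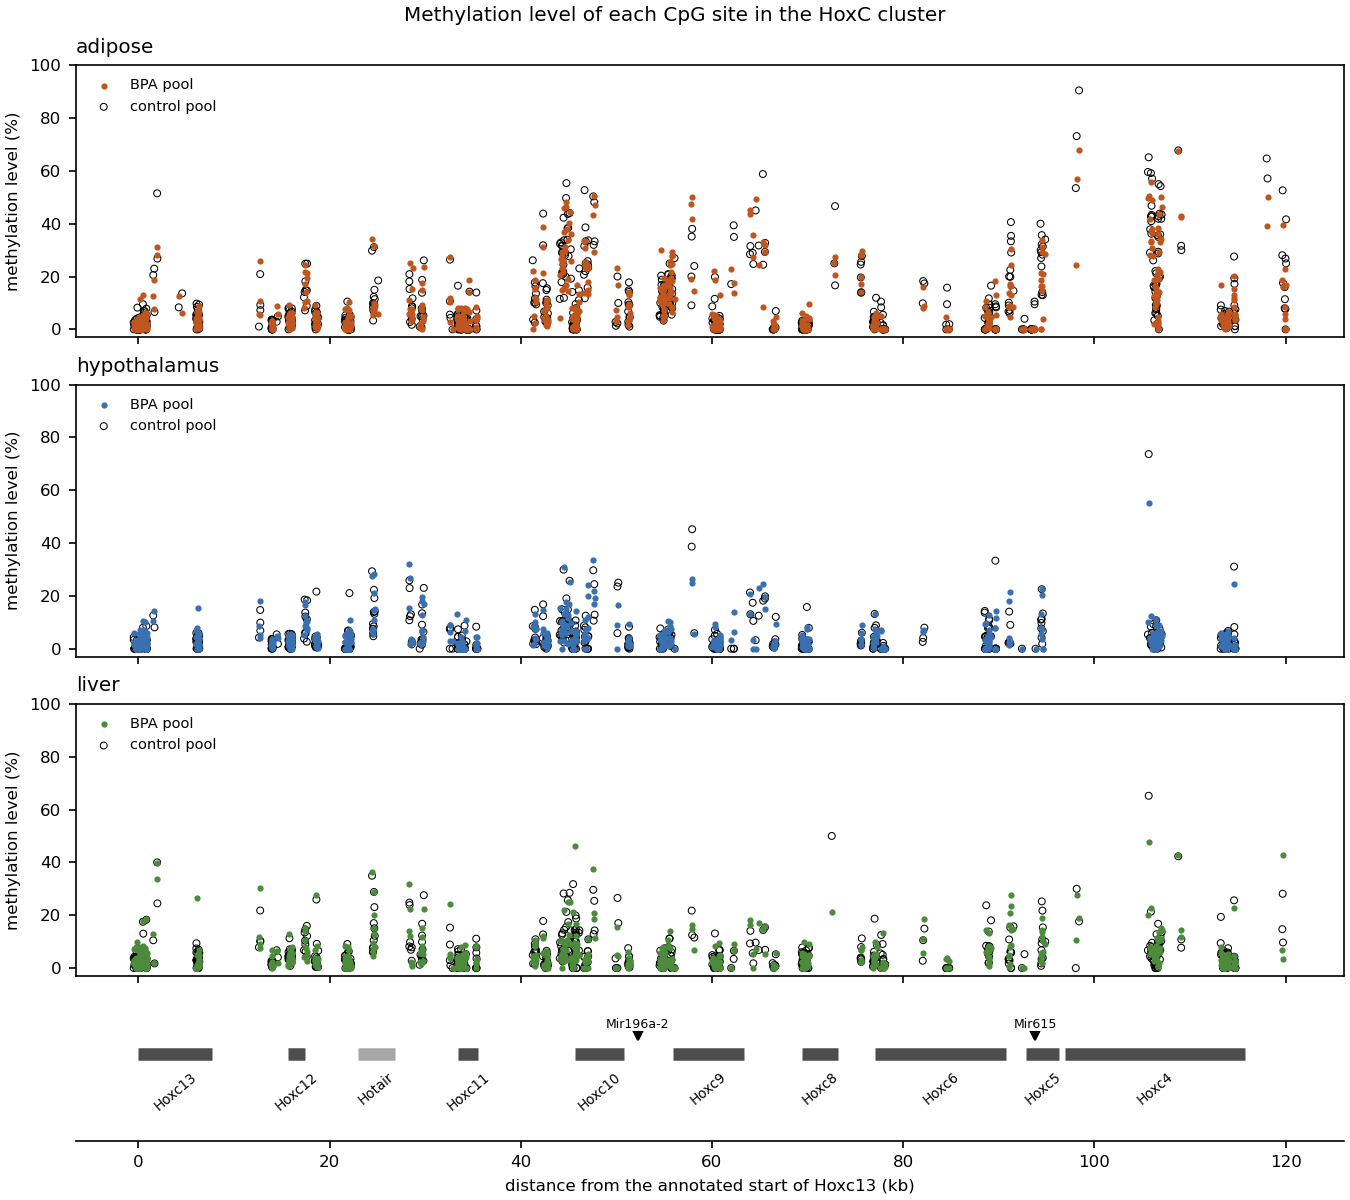
Methylation level (%) of each CpG site against its distance in kb from the annotated start of Hoxc13, for adipose, hypothalamus and liver, with BPA pools as filled points, control pools as open points and the coding genes, Hotair and the microRNA genes drawn below. Sites above 50% number 6 in BPA adipose and 18 in control adipose, against at most 1 in any pool of the other tissues.

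Means of gene bodies are over the sites measured in the tissue, so their number can differ between tissues. The posterior genes had low methylation in their bodies, apart from Hoxc10. Hoxc13 (chr15:102921131-102928814), which is needed for hair and nail formation, had 97 sites in adipose with means of 3.47% in BPA and 4.04% in control. Its means were 2.90% in BPA and 2.17% in control hypothalamus, and 4.03% in BPA and 4.25% in control liver. Hoxc12 (chr15:102936826-102938609) and Hoxc11 (chr15:102954526-102956701), posterior regulators of the hindlimb and lower trunk, had means between 1.42% and 5.11% in all 6 pools. Hoxc10 (chr15:102966796-102971898), a regulator of hindlimb motor neurons that is also expressed in white fat, had 15.5% in BPA and 16.4% in control adipose over 40 sites. Its means were 9.72% in BPA and 8.26% in control hypothalamus (28 sites), and 7.06% in BPA and 8.95% in control liver (36 sites).

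Among the central genes, which pattern the thorax and forelimb region, the body of Hoxc9 (chr15:102977032-102984444) averaged 6.98% in BPA and 6.79% in control adipose. In hypothalamus it averaged 3.56% in BPA and 3.17% in control, and in liver 2.77% in BPA and 3.20% in control. Hoxc8 (chr15:102990539-102994275) stayed between 2.03% (control, hypothalamus) and 4.64% (control, liver).

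Of the anterior genes, which pattern the neck and upper trunk, Hoxc6 (chr15:102998226-103011882) ranged from 2.89% (BPA, adipose) to 5.07% (control, liver). Hoxc5 (chr15:103014008-103017429) had 10.2% in BPA and 16.2% in control adipose over 23 sites, against 8.09% to 9.92% over 10 or 11 sites in the pools of the other tissues. Over its 9 sites measured in all tissues, the mean was 19.7% in BPA and 24.4% in control adipose. The same 9 sites had 8.99% in BPA and 9.80% in control hypothalamus, and 7.91% in BPA and 8.60% in control liver. Hoxc4 (chr15:103018097-103036856) had 16.6% in BPA and 18.8% in control adipose over 102 sites. Its means were 3.87% in BPA and 3.81% in control hypothalamus, and 6.16% in BPA and 5.82% in control liver. The noncoding gene Gm30528 (chr15:103026807-103060555) overlaps Hoxc4 and shares most of these sites.

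Of the other noncoding genes, Hotair (chr15:102944062-102947946) produces a long RNA that in human cells was described to bind Polycomb proteins. Over the 11 sites of Hotair measured in all tissues, the mean was 12.3% in BPA and 13.4% in control adipose, 14.5% in BPA and 13.4% in control hypothalamus, and 14.2% in BPA and 15.4% in control liver. These 6 means lay close together, whereas at Hoxc10 and Hoxc4 adipose stood above the other tissues. Within Hotair, the site at 102945576 had between 27.4% (BPA, hypothalamus) and 36.5% (BPA, liver), while the site at 102945714 had between 4.72% and 7.96%. Gm29905 (chr15:102997332-102998167) averaged 1.91% to 4.42% over 11 sites. No site was measured within Mir196a-2 (chr15:102973350-102973434) or within Gm36878 (chr15:102980477-102981063). The measured CpG nearest to Mir196a-2 lay 827 bp from the annotated gene. Mir615 (chr15:103014910-103015001) held 1 measured site, in hypothalamus only, with 0 methylated of 10 reads in BPA and 0 of 14 in control, counts whose exact 95% upper limits are 30.8% in BPA and 23.2% in control.

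The 1 kb around the annotated start of each Hoxc gene, here its lower coordinate, was under 5% in both adipose pools for every gene with measured sites except Hoxc9. At the Hoxc9 start, 22 sites averaged 17.7% in BPA and 15.3% in control adipose, 4.32% in BPA and 3.45% in control hypothalamus (15 sites), and 2.86% in BPA and 3.12% in control liver. Of the 15 sites there measured in both tissues, 14 were called higher in adipose than in hypothalamus, in the BPA pools and again in the control pools. At the Hoxc10 start the means were 4.82% in BPA and 4.90% in control adipose, and 6.34% in BPA and 7.61% in control liver. None of the sites lay within 500 bp of the annotated start of Hoxc4. The 224 adipose sites near Hoxc starts averaged 4.15% in BPA and 4.06% in control, and the other 619 averaged 10.5% in BPA and 11.7% in control.

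Tissues were compared site by site with a two-sided Fisher's exact test on pooled reads, adjusted by Benjamini-Hochberg over all sites of the genome with at least 10 reads in both pools. Sites that differed by 5 percentage points or more with an adjusted p under 0.05 were called. The test between the BPA pools and that between the control pools use different animals. This is a test of the reads of 2 pools and measures no spread between animals.

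Adipose was more methylated than hypothalamus at nearly all the sites called. Between BPA pools 130 of 728 sites were called, 125 higher and 5 lower in adipose, which is 17.9% of the cluster where 13.4% of all sites were called (3.89% higher and 9.47% lower). Between control pools 138 were called, all higher in adipose, which is 19.0% of the cluster where 12.9% of all sites were called (3.79% higher and 9.08% lower). In both kinds of pool 107 sites were called, all higher in adipose, which is 14.7% of the cluster against 8.76% of all sites. Over all sites the lower calls in adipose outnumbered the higher ones, and in the cluster the higher calls outnumbered the lower ones. The median level of the cluster was 2.66% in BPA and 1.89% in control hypothalamus, and 2.91% in BPA and 3.23% in control liver. Hypothalamus medians over all sites were 66.7% in BPA and 67.3% in control. A site under 5% in hypothalamus or liver cannot be called lower in adipose than in that tissue. Lower calls were thus not possible at most sites of the cluster, which limited the direction of the calls.

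Against liver the same direction prevailed. Between BPA pools 160 of 754 sites were called, 147 higher and 13 lower in adipose (21.2% of the cluster and 15.8% of all sites, of which 7.43% higher and 8.34% lower). Between control pools 173 were called, 158 higher and 15 lower (22.9% of the cluster and 16.5% of all sites, of which 8.05% higher and 8.42% lower). Both kinds of pool called 111 sites higher and 5 lower in adipose, in all 15.4% of the cluster against 10.6% of all sites. Of the sites in all tissues, 85 were called higher in adipose than in hypothalamus and than in liver, in both kinds of pool. They averaged 27% in BPA and 27.6% in control adipose, 6.33% in BPA and 5.71% in control hypothalamus, and 6.78% in BPA and 6.80% in control liver, levels that partly chose them.

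With a minimum difference of 20 points in place of 5, the control pools called 52 sites for adipose against hypothalamus, all 52 higher in adipose (7.14% of the cluster and 6.62% of all sites, of which 1.89% higher and 4.73% lower). For adipose against liver they called 63, of which 62 were higher and 1 was lower in adipose (8.36% of the cluster and 7.62% of all sites, of which 3.03% higher and 4.59% lower). At this size of difference the cluster's share of called sites was close to that of all sites, while the direction was still mostly higher in adipose. A site under 20% in the other tissue cannot be called lower in adipose at this size. For hypothalamus against liver they called 2, 1 higher and 1 lower in hypothalamus (0.285% of the cluster and 8.18% of all sites, of which 4.8% higher and 3.38% lower).

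The 85 sites higher in adipose than in both other tissues were spread along the cluster in groups. The overlap of Hoxc4 and Gm30528 held 25 of them, the stretch between Hoxc11 and Hoxc10 held 21, that between Mir196a-2 and Hoxc9 held 17, and that between Hoxc8 and Gm29905 held 6. Hoxc10 and the stretch between it and Mir196a-2 held 5 each, Hoxc5 held 3, the stretch between Hoxc9 and Hoxc8 held 2, and Hoxc4 outside Gm30528 held 1. The bodies of Hoxc13, Hoxc12, Hotair, Hoxc11, Hoxc9, Hoxc8 and Hoxc6 held none.

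Of the 5 called sites with the greatest difference from hypothalamus in the control pools, 4 lay in Hoxc4, a gene whose product acts in anterior patterning, and 1 in Hoxc10. At position 103026723 the level was 49.6% of 137 reads in BPA and 59.6% of 104 reads in control adipose, 10% in BPA and 5.38% in control hypothalamus, and 20.2% in BPA and 6.71% in control liver. Adipose exceeded hypothalamus there by 39.6 points in the BPA pools (95% interval 28.2 to 49.1) and by 54.2 points in the control pools (42.6 to 63.7), with adjusted Fisher p of 5.8e-09 and 5.6e-15. At position 103027162 the level was 49.1% in BPA and 57.1% in control adipose, against 2.63% in BPA and 6.03% in control hypothalamus and 7.10% in BPA and 9.58% in control liver. Adipose exceeded hypothalamus at this position by 46.4 points in the BPA pools and by 51.0 points in the control pools. Both adipose pools stood far above all 4 other pools at both sites. Positions 103027032 and 103028046, also in the overlap of Hoxc4 and Gm30528, had 55.7% and 50% in BPA adipose, against 59.2% and 54.2% in control adipose, and at most 22.8% in any pool of the other tissues.

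Within Hoxc10, position 102967805 had 31.0% of 71 reads in BPA and 52.7% of 55 reads in control adipose, 5.80% in BPA and 2.33% in control hypothalamus, and 0% of 13 reads in BPA (exact 95% interval 0 to 24.7%) and 4.35% of 23 reads in control liver. The adipose excess over hypothalamus was 25.2 points in the BPA pools (95% interval 12.6 to 37.2) and 50.4 points in the control pools (34.2 to 63.1). The site was called against hypothalamus in both kinds of pool, but against liver only in the control pools (adjusted Fisher p of 0.09 for the BPA pools). The greatest excess over liver was at Hoxc4 position 103019521, which was not measured in hypothalamus. It had 67.9% of 28 reads in BPA and 90.5% of 21 reads in control adipose, against 19.0% of 21 reads in BPA and 17.6% of 17 reads in control liver.

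Few sites were lower in adipose. Position 102966608, between Hoxc11 and Hoxc10, had 5.05% in BPA and 6.29% in control adipose, 3.23% in BPA and 4.82% in control hypothalamus, and 21.1% of 133 reads in BPA and 31.8% of 129 reads in control liver. It was called lower in adipose than in liver, and lower in hypothalamus than in liver, in both kinds of pool. Position 102939760, between Hoxc12 and Hotair, was also lower in adipose than in liver in both, with 6.55% in BPA and 8.93% in control adipose against 27.5% in BPA and 25.9% in control liver.

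Few sites differed between hypothalamus and liver, where the low medians of both tissues limited how many sites could be called lower in either. Between BPA pools 18 of 702 sites were called, 7 higher and 11 lower in hypothalamus, which is 2.56% of the cluster where 16.7% of all sites were called (11.1% higher and 5.63% lower). Between control pools 30 were called, 9 higher and 21 lower, 4.27% of the cluster against 16.9% of all sites (11.2% higher and 5.72% lower). Both kinds of pool called 2 sites higher and 5 lower in hypothalamus, where 11.9% of all sites were called in both. One of the 2 higher ones is position 102986691, between Hoxc9 and Hoxc8, with 19.7% in BPA and 19.8% in control hypothalamus against 5.46% in BPA and 6.90% in control liver, while adipose had 32.1% in BPA and 32.7% in control.

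The difference between tissues at a site was similar in both kinds of pool where adipose was involved. Over the sites, the differences in the BPA pools and in the control pools had a Pearson correlation of 0.82 for adipose minus hypothalamus (728 sites), 0.79 for adipose minus liver (754 sites) and 0.35 for hypothalamus minus liver (702 sites). Neighbouring sites share reads, so these are descriptions.

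**Figure D2:**
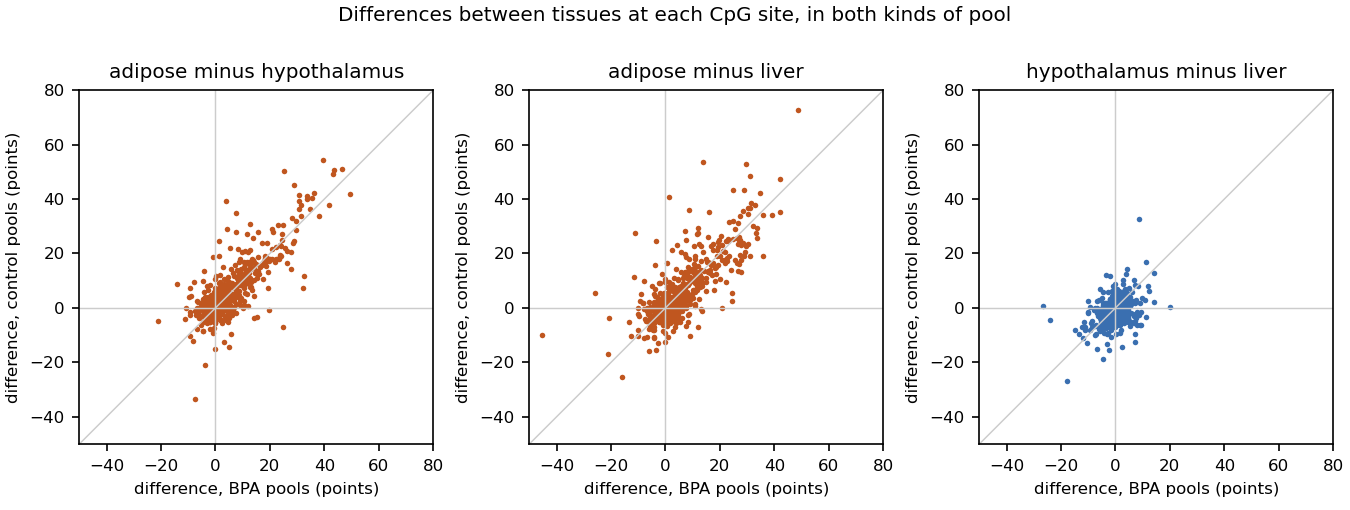
Difference in methylation level between 2 tissues at each CpG site, in percentage points, with the BPA pools on the x axis and the control pools on the y axis, and the diagonal marking equal differences. Differences of adipose from the other tissues extend to the upper right, while those of hypothalamus from liver lie on both sides of 0, between -26.7 and 19.9 points in the BPA pools and between -27.0 and 32.7 points in the control pools, with correlations of 0.82, 0.79 and 0.35.

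Neighbouring sites were grouped into 30 blocks with gaps of at most 500 bp and at least 5 sites measured in all tissues, 679 sites in all. The mean was under 5% in all 6 pools in 13 blocks with 399 sites, among them the first 4 blocks. These lie in parts of Hoxc13, between Hoxc13 and Hoxc12, and at the start of Hoxc12. Some Hoxc13 sites lie in no block, such as position 102923105, with 28.2% in BPA and 51.5% in control adipose. In 10 blocks with 215 sites, adipose was at least 5 points above both other tissues in both kinds of pool, and no block was as far below either of them in both. One of the 10, block 5, lies at the end of Hoxc12, and the others run from the stretch between Hoxc11 and Hoxc10 to Hoxc4. Hypothalamus and liver differed by 5 points in both kinds of pool in none of the 30.

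The greatest mean was in block 21, 9 sites between Hoxc9 and Hoxc8 (chr15:102985107-102986691), with 35.6% in BPA and 30.8% in control adipose. It had 13.2% in BPA and 15% in control hypothalamus, and 11.1% in BPA and 9.33% in control liver. Block 29 in Hoxc4 (chr15:103026723-103028153) had 43 sites with 25.4% in BPA and 27.6% in control adipose, 4.99% in BPA and 4.95% in control hypothalamus, and 8.06% in BPA and 6.78% in control liver. In block 29, 27 of 43 sites were called higher in adipose than in hypothalamus in both kinds of pool. Block 17 in Hoxc10 (chr15:102967738-102968195) had 12 sites with 23.3% in BPA and 28.9% in control adipose, against at most 8.28% in the pools of the other tissues.

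Block 24 covers 128 bp between Hoxc8 and Gm29905 (chr15:102996676-102996803). Its 6 sites averaged 22.8% in BPA and 20.9% in control adipose, 4.22% in BPA and 2.67% in control hypothalamus, and 4.85% in BPA and 5.39% in control liver. All 6 were called higher in adipose than in each other tissue in both kinds of pool, with 175 to 374 reads in the BPA adipose pool. Block 19, at the start of Hoxc9 (chr15:102975646-102977213), had 13.7% in BPA and 12.8% in control adipose over 40 sites, and at most 3.48% in the other pools.

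**Figure D3:**
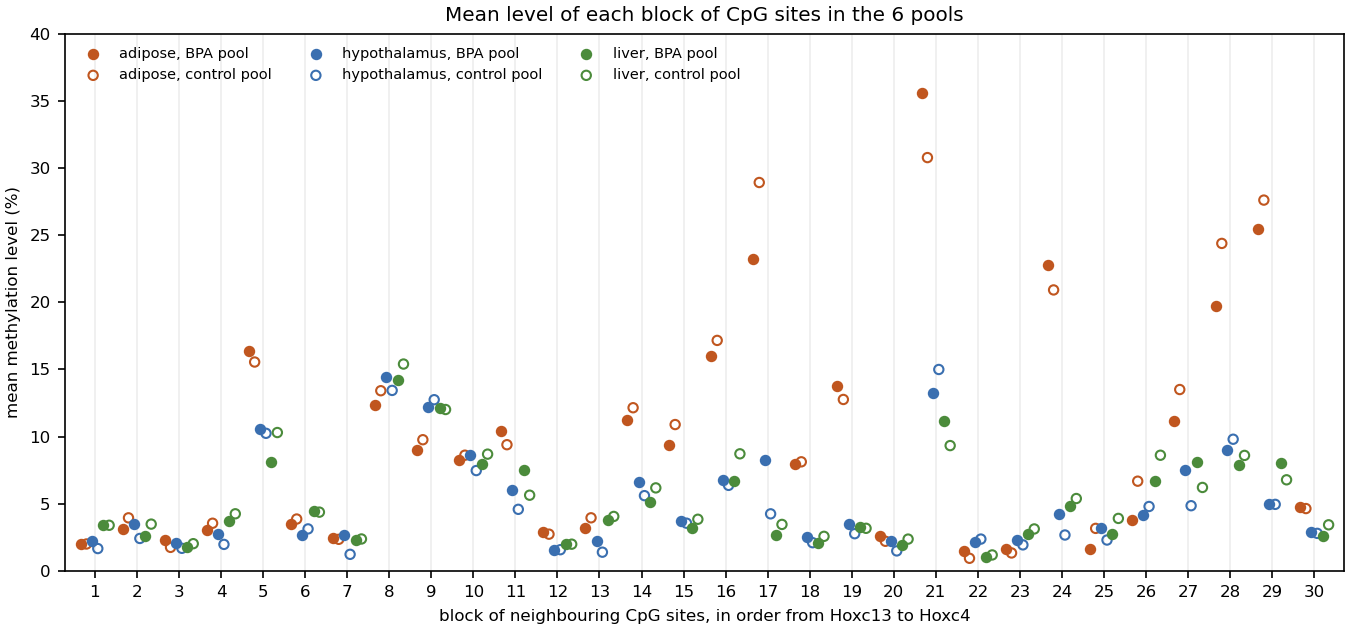
Mean methylation level (%) of the 30 blocks of neighbouring CpG sites, in order from Hoxc13 to Hoxc4, with BPA pools as filled and control pools as open points. Both adipose points stand at least 5 points above all others in 10 blocks, and in 13 blocks all 6 points lie under 5%.

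The other Hox clusters also had a greater share of sites called for adipose than all sites together, and in the same direction. Between control pools, 19.0% of the HoxC sites were called for adipose against hypothalamus, compared with 22.5% in HoxA, 24.2% in HoxB and 27.3% in HoxD. The calls higher and lower in adipose numbered 138 and 0 in HoxC, 208 and 10 in HoxA, 198 and 14 in HoxB, and 254 and 1 in HoxD. Higher methylation in adipose was thus not particular to HoxC. For hypothalamus against liver the share was 4.27% in HoxC, 5.29% in HoxA, 11.3% in HoxB and 2.78% in HoxD. No difference between the clusters was tested.

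BPA and control were compared by the deposited Fisher p-values, adjusted here over all tested sites of the tissue, with the same thresholds. None of the cluster's sites was called in any tissue. In adipose 0 of 843 sites were called, where 0.535% of all sites were, and 97 had an unadjusted p under 0.05, which is 11.5% of the cluster and 10.1% of all sites. Of these 97, 35 were higher and 62 lower in BPA, 4.64% and 5.49% being the shares of all sites in the same directions. In hypothalamus 0 of 731 sites were called, where 0.00599% of all sites were. Its 24 sites with an unadjusted p under 0.05, 18 higher and 6 lower in BPA, made up 3.28% of the cluster, with 3.41% over all sites (1.8% higher and 1.61% lower). In liver 0 of 755 sites were called, where 0.0259% of all sites were, and 23 had an unadjusted p under 0.05, 10 higher and 13 lower in BPA, 3.05% of the cluster with 4.21% over all sites (2.09% higher and 2.12% lower). By the credible difference in the authors' deposited table, 22 adipose, 2 hypothalamus and 4 liver sites differed by at least 5 points. These were 2.61%, 0.274% and 0.53% of the cluster, below the 2.99%, 0.858% and 0.995% of all sites.

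The coverage limited what could be called. Only gains in BPA were worked out, at the median coverage of the cluster and a control level near 5%. The gain that would have passed was 13.8 points for adipose, 22.8 points for hypothalamus and 18.6 points for liver. A loss from such a level cannot exceed the level itself, so the absence of calls says little about losses at sites this low. The squared difference between BPA and control averaged 1.86 times the counting error in adipose, 1.17 times in hypothalamus and 1.18 times in liver, with 1.91 times in adipose and 1.18 times in both other tissues over all sites. The cluster's sites with 10 to 19 reads in the shallower pool, just inside the coverage threshold, averaged 5.73% in BPA and 8.17% in control adipose. The 32 adipose sites just outside it averaged 14.3% in BPA and 9.15% in control.

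In adipose the site with the smallest p was Hoxc4 position 103027813, with 0% of 23 reads in BPA and 42.9% of 21 reads in control. The exact 95% intervals were 0 to 14.8% in BPA and 21.8 to 66.0% in control, and the difference was -42.9 points (-63.5 to -19.6; adjusted Fisher p of 0.0605). Sites at 103027800 and 103027845 on either side were also lower in BPA, with 4.76% of 21 and 14.3% of 21 reads in BPA against 35.0% of 20 and 55% of 20 reads in control. None of these 3 sites was measured in hypothalamus or liver, and all had 20 to 23 reads. The run of 3 was picked out after its values were seen and has no test of its own.

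Better covered sites differed less. Hoxc4 position 103027103 had 30.8% of 234 reads in BPA and 46.8% of 235 reads in control adipose, a difference of -16.0 points (95% interval -24.5 to -7.23; adjusted Fisher p of 0.0625). The same site had 1.74% in BPA and 1.75% in control hypothalamus, and 6.01% in BPA and 3.61% in control liver. In Hoxc13, position 102923105 had 28.2% of 117 reads in BPA and 51.5% of 99 reads in control adipose (adjusted Fisher p of 0.0794), and 39.7% in BPA and 40% in control liver. In Hoxc9, position 102983428 had 13.8% of 94 reads in BPA and 35.0% of 100 reads in control adipose, and at most 6.82% in the pools of the other tissues. Between Hotair and Hoxc11, position 102949477 had 5.95% of 168 reads in BPA and 18.1% of 149 reads in control adipose. All 5 adipose sites with the smallest p, the 4 here and position 103027813, were thus lower in BPA, and none passed the adjusted threshold.

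Higher levels in BPA adipose were seen at single sites between Hoxc9 and Hoxc8, picked out after their values were seen. Over all 23 adipose sites of this stretch the mean was 15.2% in both pools. Of these sites, 5 were higher and 1 was lower in BPA at an unadjusted Fisher p under 0.05. Positions 102985107 and 102985146, the first sites of block 21, had 45.3% and 43.8% in BPA against 28.5% and 31.5% in control, with adjusted Fisher p of 0.138 and 0.417. Over the blocks, BPA minus control in adipose ran from -5.65 points in block 17 of Hoxc10 to 4.84 points in block 21, with 12 blocks higher and 18 lower in BPA. The 63 sites measured in adipose only averaged 8.75% in BPA and 13.2% in control. The 85 sites higher in adipose than in both other tissues averaged 0.578 points less in BPA than in control adipose, 42 being higher and 42 lower.

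In hypothalamus, position 102927366 in Hoxc13 had 15.4% of 117 reads in BPA and 3.52% of 142 reads in control, a difference of 11.9 points (95% interval 4.84 to 19.8; adjusted Fisher p of 1). In the other tissues this site had 5.58% in BPA and 7.45% in control adipose, and 1.05% in BPA and 1.18% in control liver. At Hoxc5 position 103015613 the hypothalamus had 20.4% of 270 reads in BPA and 11.3% of 195 reads in control. Position 102939760, between Hoxc12 and Hotair, was lower, with 3.57% of 56 reads in BPA and 21.6% of 37 reads in control.

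The hypothalamic mean over the cluster was 0.466 points higher in BPA, with 401 sites higher, 259 lower and 71 equal, and 23 of 30 blocks higher. These are 54.9% higher and 35.4% lower, where 48.2% of all hypothalamus sites were higher and 39.9% lower. The other Hox clusters had the same direction, with 472 higher and 375 lower in HoxA, 471 and 321 in HoxB, and 507 and 301 in HoxD. Sites of the whole genome with under 1% methylation in all adipose and liver pools had 0.868% of reads methylated in BPA and 0.459% in control hypothalamus (168239 sites). Over the 21 such sites of the cluster the shares were 1.26% in BPA and 1.25% in control hypothalamus. In adipose the corresponding genome-wide shares were 0.460% in BPA and 0.459% in control, and in liver 0.578% in BPA and 0.755% in control. The part of this shift at near-zero sites in the hypothalamic difference of the cluster was not tested.

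In liver the smallest p belonged to position 102965904, between Hoxc11 and Hoxc10, with 9.13% of 219 reads in BPA and 21.2% of 259 reads in control (difference -12.1 points, 95% interval -18.3 to -5.67; adjusted Fisher p of 0.316). Hoxc4 position 103026723, which had the greatest adipose excess over hypothalamus in the control pools, had 20.2% of 129 reads in BPA and 6.71% of 149 reads in control liver (difference 13.5 points, 5.49 to 21.8; adjusted Fisher p of 0.507). Position 103034353, the second capital CG of the Hoxc4 window printed above, had 7.80% of 141 reads in BPA and 19.4% of 124 reads in control liver. In adipose the same CG had 16.9% of 178 reads in BPA and 9.09% of 154 reads in control, and in hypothalamus 5.41% in BPA and 4.05% in control. Over the blocks, liver was lower in BPA in 22 of 30, with a mean difference over the cluster's sites of -0.256 points. Of these sites 50.7% were lower and 44.4% higher in BPA, where 47.4% of all liver sites were lower and 43.5% higher.

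**Figure D4:**
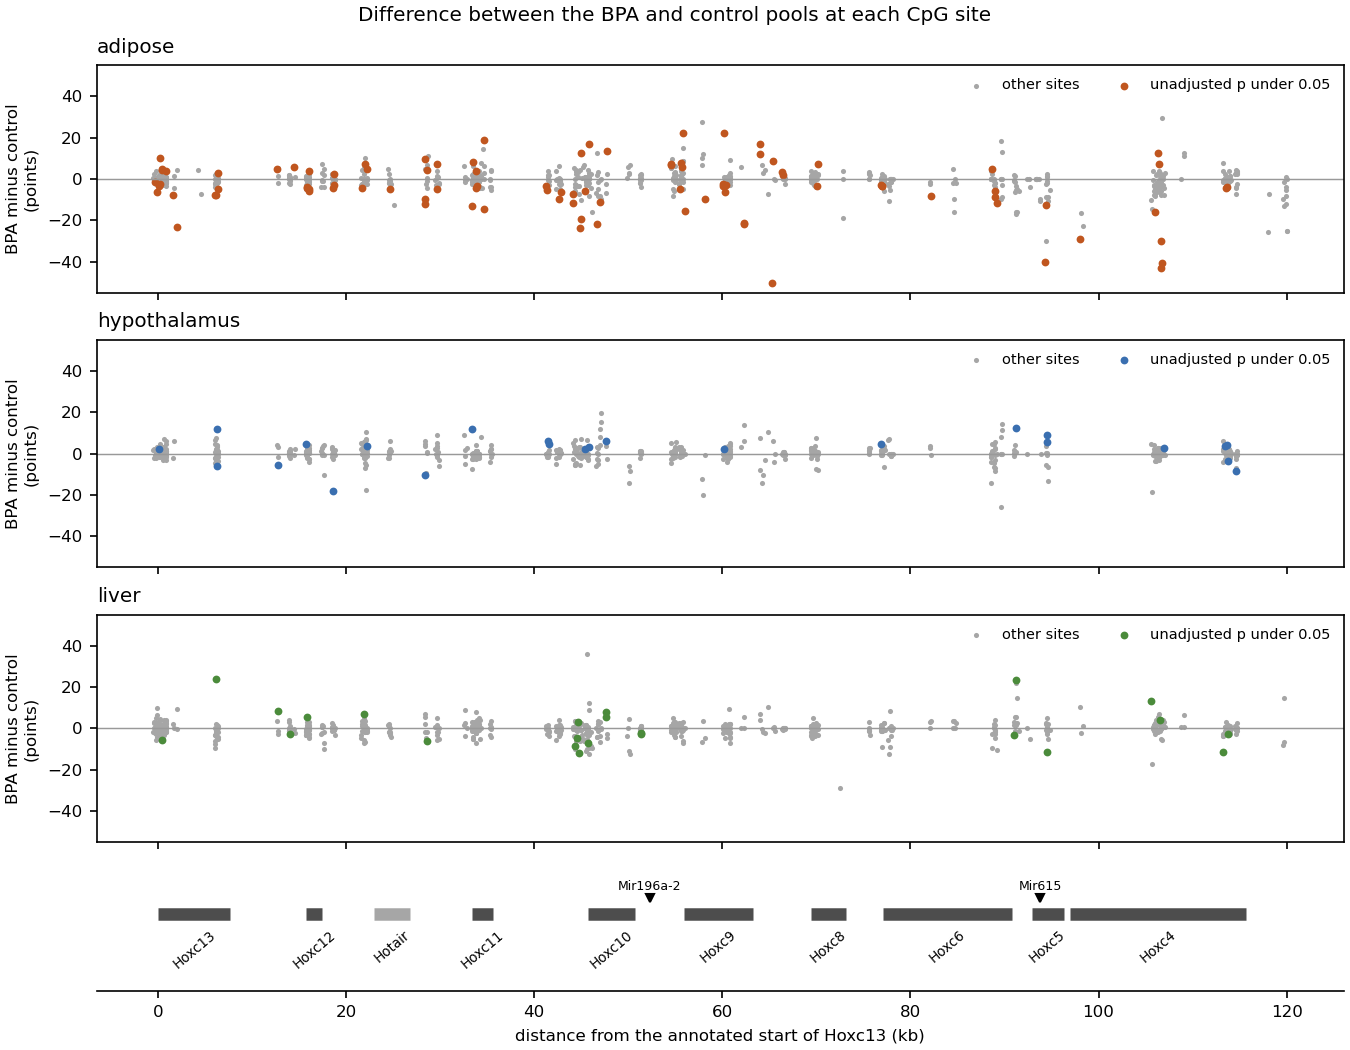
BPA minus control level (percentage points) at each CpG site against the distance in kb from the annotated start of Hoxc13, in adipose, hypothalamus and liver, with coloured points for an unadjusted Fisher p under 0.05. These number 97 in adipose, 24 in hypothalamus and 23 in liver, and none passed the adjusted threshold.

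Whether the BPA difference itself differed between tissues was tested at each site by comparing the log odds ratios of the tissues in a Wald test, adjusted over all sites. None of the cluster's sites passed for adipose against hypothalamus (0 of 728, with 0.0266% of all sites), adipose against liver (0 of 754, with 0.0493%) or hypothalamus against liver (0 of 702, with 0.00375%). By the same test, an unadjusted p under 0.05 was found at 23 sites of the cluster for adipose against hypothalamus (3.16%, with 5.39% of all sites), 47 for adipose against liver (6.23%, with 6.54%) and 24 for hypothalamus against liver (3.42%, with 3.66%). The share was lower than over all sites for adipose against hypothalamus, and close to that of all sites for the other pairs. No share was tested against that of all sites. The smallest adjusted p was 0.218, at Hoxc4 position 103026723 for adipose against liver, where BPA minus control was -10.0 points in adipose and 13.5 points in liver. BPA and control were also compared in the other Hox clusters by the deposited Fisher p-values, adjusted likewise. In adipose 7 of 1124 sites were called in HoxA, 2 of 1005 in HoxB and 9 of 1046 in HoxD. Of all adipose sites 0.535% were called, and no cluster was tested against this share.

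The tissue labels were checked against marker genes. Hepatocyte markers had a median gene level of 47.9% in BPA and 43.7% in control liver, against at least 80.4% in the other pools. Adipocyte markers had 53.3% in BPA and 52.7% in control adipose, against 78.5% to 83.7% in hypothalamus and 64.3% to 65.0% in liver. Oligodendrocyte markers were at 36.3% in BPA and 36.5% in control hypothalamus, close to 39.1% in BPA and 38.8% in control liver. In adipose they were at 52.1% in BPA and 54.2% in control, so they set adipose apart but hardly hypothalamus from liver. Neuron markers, at 38.2% to 40.04% in all pools, and astrocyte markers, at 42.0% to 47.4%, did not separate the tissues. Endothelial markers were at 52.0% in BPA and 54.6% in control adipose, against 71.3% to 83.3% elsewhere, and leukocyte markers at 55.9% in both adipose pools, against 59.9% to 65.1% elsewhere. Markers of epididymis and testis, which adjoin this fat depot, had 69.9% in BPA and 72.7% in control adipose, against 74.4% to 79.95% elsewhere. The part of these cell types in the adipose levels of the cluster was not tested.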

How the data were processed

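The authors deposited 1 table per tissue, in which the 3 samples of a treatment are joined into 1 pool. The submitters' processing notes name the aligner BSMAP and the build GRCm38 (mm10), and do not state whether PCR copies were removed. Per the file headers, the read count is the number of reads covering a CpG in a pool, not normalized. Per the file headers, the methylation fraction gives methylated over covering reads of the pool, rounded by the authors. The deposited p-value comes from the authors' Fisher test of one pool against the other, and 99.9% of the recomputed values lay within 0.05 of it on the log10 scale in each tissue. The authors' credible difference, used here as a score, is their own comparison of the pools and served as an alternative. The deposited start is counted from 0, and positions are printed from 1.

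Values per sample, which a logistic test over samples would need, were not used here, so the deposited comparison was followed. The p-values were adjusted by Benjamini-Hochberg over the nuclear sites of a tissue where both pools reached 10 reads. Tissues were compared with Fisher's exact test on reads recovered from count times fraction, and BPA differences between tissues with a Wald test after adding 0.5 reads to each cell. The 95% intervals are exact (Clopper-Pearson) for levels and by Newcombe's method for differences. Reads summed over CpG sites were 408843208 in BPA and 359448593 in control adipose, 226713593 in BPA and 213435802 in control hypothalamus, and 286258561 in BPA and 316176971 in control liver.

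Gene positions came from RefSeq (GRCm38.p6), which gives no strand or exon in the table used, so sites were assigned to gene bodies or to the stretches between genes. All genes annotated in the window were named. Named sites were the 5 with the smallest p per BPA comparison and up to 5 called sites per direction with the greatest difference per tissue comparison, and the other named sites were chosen after their values were seen. Further lists held 28 Polycomb genes, 11 trithorax and demethylase genes, 13 Hox cofactors and upstream regulators, and markers of 8 cell types. Results of some listed genes are not reported here. The members and lists were chosen with earlier results of these data known. Python 3.11.15, NumPy 2.4.6, pandas 2.3.3, SciPy 1.17.1 and numba 0.67.0 were used, and the tests were checked on simulated data. Alternatives were other coverage minimums, minimum differences, sets of sites, p-values scaled by the spread over all sites, the authors' credible difference and the BPA pools in place of the control pools.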

Additional observations from a re-analysis of the deposited data

How the results depend on the processing

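No paired analysis was possible because the deposited values join the replicates of each group into pools, and for the same reason no replicate could be left out. Pools hide the spread between animals and litters, and the numbering of the pools rests on 1 label. By the credible difference of at least 5 points in the authors' deposited table, 22 adipose sites (6 higher and 16 lower in BPA), 2 hypothalamus sites (1 higher and 1 lower) and 4 liver sites (3 higher and 1 lower) would be called, in place of 0 each. These are 2.61%, 0.274% and 0.53% of the cluster, with 2.99%, 0.858% and 0.995% over all sites. No other alternative run called a site between BPA and control. With a minimum difference of 20 points between control pools, 52 sites were called for adipose against hypothalamus, 63 for adipose against liver and 2 for hypothalamus against liver (7.14%, 8.36% and 0.285% of the cluster, with 6.62%, 7.62% and 8.18% of all sites). The BPA pools called 18 sites for hypothalamus against liver, where the control pools called 30. With at least 20 reads in each pool the mean level was 9.02% in BPA adipose and 3.72% in control hypothalamus. Over the sites measured in all 3 tissues it was 8.55% in BPA and 9.03% in control adipose, a difference of -0.476 points in place of -0.858, and 4.53% in BPA and 4.91% in control liver. As methylated over total reads summed, it was 8.99% in BPA adipose and 4.58% in BPA hypothalamus, with differences of -0.582 points in adipose and 0.649 points in hypothalamus, where the main value was 0.466. Of the other alternative values, 57 stayed within the limits set for each result, with no direction reversed. Among them were the counts between control pools with p-values scaled by the spread over all sites. These were 92 for adipose against hypothalamus (138 in the main run), 129 for adipose against liver (173) and 23 for hypothalamus against liver (30). The count of 92 lay at the edge of its limit. The cause of the shifts was not tested.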

Other observations

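In adipose 0.535% of all sites were called between BPA and control. The shares in the Polycomb list and in the trithorax and demethylase list were close to this. The share in the list of Hox cofactors and upstream regulators was lower. Of 28 Polycomb genes 9 had at least 1 site called between BPA and control by the adjusted Fisher test, with 9 sites higher and 5 lower in BPA over the list's 2758 tested sites, a share of 0.508%. Phc2, a subunit of the Polycomb repressive complex that marks histone H2A, had 3 higher sites, led by one at 81.5% of 81 reads in BPA and 36.2% of 94 reads in control. Phf1 and Kdm2b, an accessory protein of the complex that methylates histone H3 and a protein that binds unmethylated CpG islands, had 2 higher sites each, and Kdm2b had 1 lower site. Of 11 trithorax and demethylase genes 4 had called sites, 4 higher and 2 lower in BPA of 1168 tested (0.514%), in Kmt2b, Kmt2d, Ash2l and Kdm6b. Of 13 cofactors and upstream regulators 2 had 1 higher site each of 1374 tested (0.146%), Pbx4 and Pknox2, both of the homeodomain family that supplies the DNA-binding partners of Hox proteins. In hypothalamus none of the lists had a site called by this test. No list was tested against the share of all sites.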
